A study of Rattus norvegicus with 9 samples.

Results

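Cxcl9, Cxcl10 and Cxcl11 encode the chemokines that interferon-gamma induces, and Cxcr3 encodes the receptor that all of them bind. These 4 genes, found by their symbols among 23768 in the count table, are described here in rat tibia. The family was chosen by its differences in counts between the groups, which were already known from these data, so the levels and differences of its members are given as a description, with no p. All 4 passed the filter on low counts, which kept 16816 genes.

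The RNA came from tibiae of male Sprague Dawley rats (Rattus norvegicus) in 3 groups of 3 libraries, named Model, GelMA and PMLGH. The name GelMA commonly stands for gelatin methacryloyl, a light-cured gelatin hydrogel. The labels expand neither that name nor PMLGH, and state no lesion, age, time or dose for any group. The study's title speaks of a peptide that imitates lysyl oxidase and of bone repair in diabetes, but the labels do not say which groups were diabetic. They also do not say that each library is a separate animal, so the spread between libraries may be technical in part.

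Interferon-gamma from activated T and natural killer (NK) cells acts through IRF1, among other factors, in macrophages, endothelium and stromal cells, which then release CXCL9, CXCL10 and CXCL11. CXCL10 is also induced by type I interferons and through NF-kappaB. CXCR3 sits mainly on activated T helper 1 cells, cytotoxic T cells and NK cells, which move along the ligands into inflamed tissue.

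The ligand genes lie side by side, and their upstream sequences are shown because these regions hold the sites at which the induction of this family is classically studied. In RefSeq's GRCr8 annotation the order along chromosome 14 is Scarb2, Nup54, Art3, Cxcl11, Cxcl10, Cxcl9, Sdad1, Naaa and Ppef2, leaving out genes that the count table does not list. The 250 bases before each annotated start follow, 5′ to 3′ on the + strand of GRCr8, for Cxcl9 (chr14:16006916-16007165), Cxcl10 (chr14:15988816-15989065) and Cxcl11 (chr14:15973478-15973727). Capitals mark matches to the NF-kappaB consensus and to the interferon-stimulated response element (GAAA, any 2 bases, GAAA), searched on both strands.
Cxcl9: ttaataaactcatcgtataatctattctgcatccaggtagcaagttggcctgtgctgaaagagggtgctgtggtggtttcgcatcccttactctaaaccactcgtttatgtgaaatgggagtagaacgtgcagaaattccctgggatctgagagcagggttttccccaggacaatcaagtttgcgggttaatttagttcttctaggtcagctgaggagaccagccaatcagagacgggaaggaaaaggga
Cxcl10: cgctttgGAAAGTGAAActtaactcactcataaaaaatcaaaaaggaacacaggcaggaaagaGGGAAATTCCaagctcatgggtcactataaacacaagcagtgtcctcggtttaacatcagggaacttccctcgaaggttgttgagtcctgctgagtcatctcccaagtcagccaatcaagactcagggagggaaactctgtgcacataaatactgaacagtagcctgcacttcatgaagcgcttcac
Cxcl11: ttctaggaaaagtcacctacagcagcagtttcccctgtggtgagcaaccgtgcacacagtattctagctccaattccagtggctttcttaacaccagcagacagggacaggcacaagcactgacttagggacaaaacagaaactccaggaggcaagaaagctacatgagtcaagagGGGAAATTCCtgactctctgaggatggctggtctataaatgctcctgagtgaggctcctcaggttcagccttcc

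The Cxcl10 and Cxcl11 windows held the same NF-kappaB match, GGGAAATTCC, at bases 187 to 178 before the start in Cxcl10 and at bases 74 to 65 in Cxcl11. Of 33469 rat promoters of this length, 3.54% held a match to that consensus. The Cxcl10 window alone held the response element, as GAAAGTGAAA at bases 243 to 234, against 3.41% of all promoters. An AP-1 site (TGANTCA, in 6.34% of promoters) read TGAGTCA at bases 96 to 90 in Cxcl10 and at bases 85 to 79 in Cxcl11. A gamma-activated site (TTCNNNGAA, in 7.67%) read TTCTAGGAA at bases 250 to 242 in Cxcl11. CCAAT (in 34.0% of promoters) occurred in all 3 ligand windows. TATAAA (in 12.9%) occurred in Cxcl10 at bases 162 to 157 and in Cxcl11 at bases 41 to 36. The Cxcl9 window held no match but CCAAT, and the Cxcr3 window held no match to any of the 6 motifs. No matches of different motifs overlapped. These are matches of letters in a short window; binding was not measured.

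Total counts per library ran from 34571478 to 37166383, lowest in Model and highest in PMLGH, without overlap (p = 0.1 in each exact two-sided permutation test, which is the lowest value that 3 libraries against 3 can reach). Model 2 differed from Model 1 and Model 5 by a chi-square of 33.0 and 27.7 averaged over genes, where those 2 libraries differed by 15.7, so results that move without it are also given that way. All 11 bone cell markers were detected, with a summed level of 15800 to 19800 CPM in Model, 32200 to 35800 in GelMA and 35200 to 40600 in PMLGH. CPM, the usual count scale, are here relative to the TMM-adjusted library total. Col1a1 and Col1a2 averaged 16250 and 9535 CPM over the series and made up most of the bone marker sum. In PMLGH against GelMA edgeR called 1.80% of all tested genes higher and 1.64% lower at an adjusted p under 0.05. It called 0 of the 11 bone cell markers higher and 1 lower. Over the alternatives, 0 to 4 were higher and 0 to 2 lower. Dmp1 had 810.1, 840.8 and 816 CPM in GelMA and 492.5, 357.7 and 296.5 CPM in PMLGH. Markers of skeletal muscle, a tissue around the tibia, summed to 546 to 833 CPM in Model, 2660 to 3300 in GelMA and 885 to 1240 in PMLGH, with all 13 detected in the series. The 10 erythroid markers summed to 10900 to 13700, 9210 to 10000 and 8800 to 10000 CPM.

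Cxcl9, first named as a monokine induced by interferon-gamma, was the most abundant of the ligands. Its level was 1.98, 4.87 and 2.00 CPM in Model 1, 2 and 5, against 12.5, 13.1 and 12.9 CPM in GelMA 2, 3 and 4 and 29.2, 25.3 and 21.1 CPM in PMLGH 2, 3 and 4. No 2 groups overlapped, and Model 2 was the highest of its group. The group means were 2.95 ± 1.67, 12.8 ± 0.28 and 25.2 ± 4.0 CPM (SD, n = 3). The log2 fold change was 3.09 ± 0.25 in PMLGH against Model (edgeR estimate ± approximate SE) and 2.11 ± 0.25 in GelMA against Model. Without Model 2 these were 3.63 and 2.66. PMLGH against GelMA gave 0.98 ± 0.22.

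Cxcl10, the interferon-induced ligand that many cell types release, showed the same order of groups. It had 43, 72 and 42 counts in Model 1, 2 and 5, or 1.27, 2.03 and 1.23 CPM. In GelMA 2, 3 and 4 the level was 5.03, 4.70 and 5.40 CPM, and in PMLGH 2, 3 and 4 it was 14.4, 13.5 and 12.0 CPM. No groups overlapped, and the lowest PMLGH library stood at 12.0 CPM where the highest GelMA library stood at 5.40. Means were 1.51 ± 0.45, 5.05 ± 0.35 and 13.3 ± 1.2 CPM (SD, n = 3). The log2 fold change was 3.13 ± 0.19 in PMLGH against Model, 1.74 ± 0.19 in GelMA against Model and 1.40 ± 0.16 in PMLGH against GelMA. The level in GelMA was 38.0% of that in PMLGH, where Cxcl9 stood at 50.8% and Cxcl11 at 52.1%.

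Cxcl11, the ligand with the highest affinity for the receptor, was nearly undetected in Model. Model 1, 2 and 5 held 24, 6 and 4 counts, or 0.71, 0.17 and 0.12 CPM, so that most of the Model signal came from Model 1. GelMA 2, 3 and 4 held 154, 165 and 152 counts (4.26, 4.51 and 4.11 CPM), and PMLGH 2, 3 and 4 held 393, 279 and 241 (10.6, 7.52 and 6.57 CPM). Again no groups overlapped. Means were 0.33 ± 0.33, 4.29 ± 0.21 and 8.23 ± 2.11 CPM (SD, n = 3). The log2 fold change was 4.63 ± 0.39 in PMLGH against Model and 3.69 ± 0.39 in GelMA against Model. Without Model 1 these were 5.81 and 4.87. PMLGH against GelMA gave 0.94 ± 0.29.

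Cxcr3, the receptor, varied less. Its level was 4.60, 4.73 and 3.46 CPM in Model 1, 2 and 5, then 6.94, 5.44 and 6.24 CPM in GelMA 2, 3 and 4, and 8.39, 10.2 and 8.12 CPM in PMLGH 2, 3 and 4. The groups did not overlap, though the lowest GelMA library (5.44 CPM) lay close to the highest Model library (4.73 CPM). Means were 4.27 ± 0.70, 6.21 ± 0.75 and 8.90 ± 1.12 CPM (SD, n = 3). The log2 fold change was 1.06 ± 0.16 in PMLGH against Model, 0.54 ± 0.17 in GelMA against Model and 0.52 ± 0.16 in PMLGH against GelMA. PMLGH 3 had the highest receptor level, whereas PMLGH 2 had the highest level of every ligand. In these bulk samples, fewer cells of a type and less RNA per cell cannot be told apart.

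**Figure D1:**
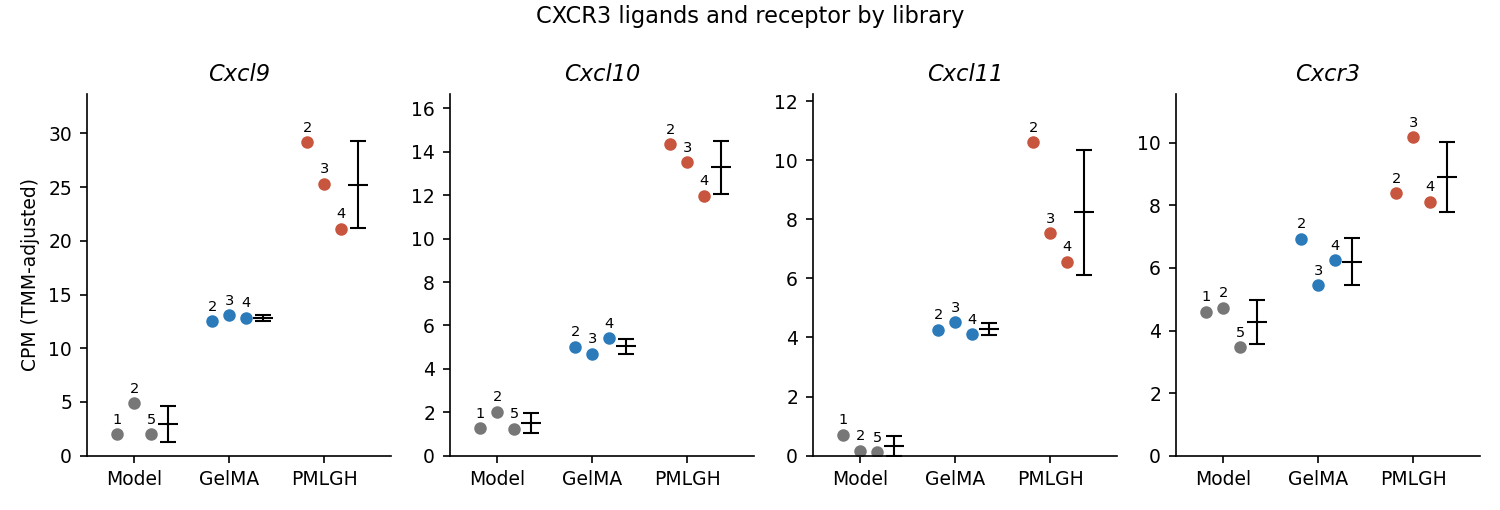
Level of each gene in CPM (y axis, linear, from 0) for every library (points, labelled by replicate number) in Model, GelMA and PMLGH; the bar beside each group is the mean ± SD of 3 libraries. In all 4 panels the PMLGH libraries lie above the GelMA libraries and these above the Model libraries, with the widest relative spread in Model.

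At an adjusted p under 0.05 in the fit of all genes, all 4 genes were called higher in PMLGH against Model, where 15.7% of tested genes were called higher and 11.9% lower, and in GelMA against Model, where 12.7% were higher and 9.88% lower. In PMLGH against GelMA, where 1.80% were called higher and 1.64% lower, Cxcl9 and Cxcl10 were called and Cxcl11 and Cxcr3 were not. Since the genes were chosen with these contrasts known, nothing is read from these counts. The calls of Cxcl10 held in all alternatives run. The call of Cxcl9 in that comparison was lost without GelMA 2, 3 or 4 or PMLGH 2 or 3 (log2 fold change between 0.85 and 0.99), with a robust spread, with DESeq2 and with limma on FPKM. Cxcl11 was called there without Model 1 or Model 2 (0.94 each), with no filter on low counts and from the 6 libraries alone, and Cxcr3 with DESeq2 and from the 6 libraries alone. Cxcr3 lost its call in GelMA against Model without Model 5, GelMA 2 or GelMA 4 (0.40, 0.45 and 0.52) and from the 6 libraries alone. Libraries did not overlap, with the first-named group higher, for all 4 genes in each comparison, as for 21.1% of tested genes in PMLGH against Model, 19.8% in GelMA against Model and 12.3% in PMLGH against GelMA. The comparisons share samples: both of those against Model use the same Model libraries.

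**Figure D2:**
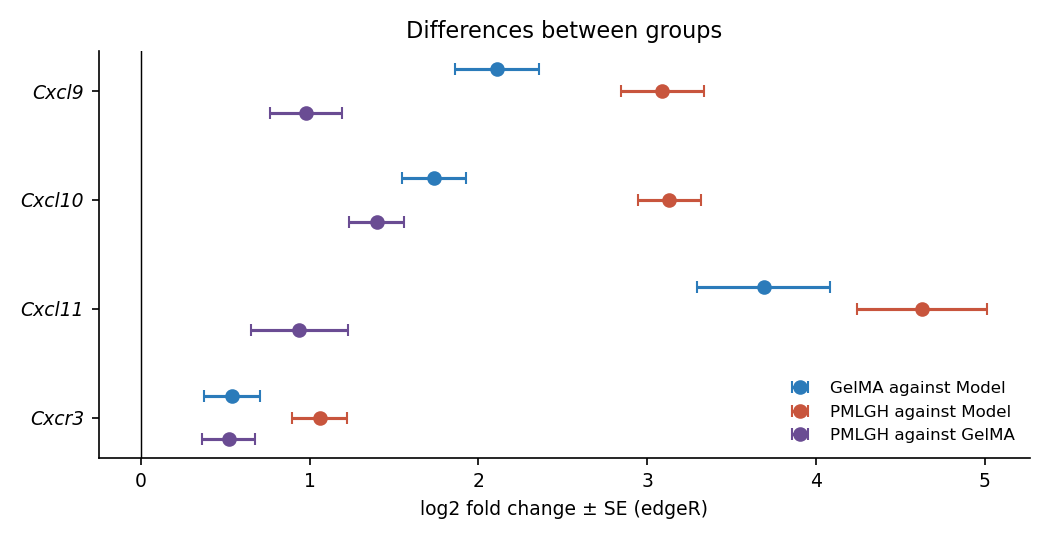
Log2 fold change (x axis) of each gene in the 3 comparisons; points are edgeR estimates and bars are ± approximate SE. The ligands lie between 1.74 and 4.63 in the comparisons with Model and between 0.94 and 1.40 in PMLGH against GelMA, and Cxcr3 lies between 0.52 and 1.06.

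Levels of different genes are set side by side as FPKM, the deposited values per length of the gene. Cxcl9 took 66.6%, 81.9% and 75.0% of the summed ligand FPKM in Model 1, 2 and 5. It took 72.7% to 73.6% in GelMA and 69.4% to 70.6% in PMLGH, so its share was lower in each PMLGH library than in each GelMA library. The share of Cxcl10 was 14.1% ± 1.0 in GelMA and 18.1% ± 1.2 in PMLGH (SD, n = 3), without overlap (13.0% to 14.9% against 16.8% to 19.2%). In Model it ran from 16.6% to 22.6%. The share of Cxcl11 was 12.5% in Model 1, 1.49% in Model 2 and 2.32% in Model 5, and ran from 12.2% to 13.4% in GelMA and from 11.0% to 13.3% in PMLGH. Cxcl11 was thus a minor part of the ligand RNA in 2 of the Model libraries and at least 11.0% of it in the other 7 libraries.

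The summed ligand FPKM was 6.90 ± 3.31 in Model, 32.1 ± 0.9 in GelMA and 64.9 ± 10.8 in PMLGH (SD, n = 3). Relative to the FPKM of Cxcr3, it was 1.94, 3.78 and 2.31 times as high in Model 1, 2 and 5. The ratio ran from 7.44 to 9.77 in GelMA and from 10.6 to 14.9 in PMLGH, so ligand RNA differed more between the groups than receptor RNA. In GelMA the order was Cxcl9 (23.4 ± 0.8 FPKM), Cxcl10 (4.51 ± 0.33), Cxcl11 (4.13 ± 0.21) and Cxcr3 (3.78 ± 0.42). There the libraries of Cxcl11 overlapped those of Cxcl10 and of Cxcr3, while those of Cxcl10 lay above those of Cxcr3. In PMLGH the order was Cxcl9 (45.4 ± 7.7), Cxcl10 (11.7 ± 1.2), Cxcl11 (7.80 ± 2.07) and Cxcr3 (5.34 ± 0.69), with no overlap between neighbours. In Model the order was Cxcl9 (5.27 ± 3.03), Cxcr3 (2.53 ± 0.42), Cxcl10 (1.32 ± 0.40) and Cxcl11 (0.31 ± 0.30), also without overlap (all SD, n = 3). Among 36 chemokine genes ranked by mean FPKM, Cxcl9 ranked 10 in Model and 8 in both other groups. Cxcl10 ranked 19, 17 and 15 and Cxcl11 ranked 23, 18 and 16 in Model, GelMA and PMLGH.

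**Figure D3:**
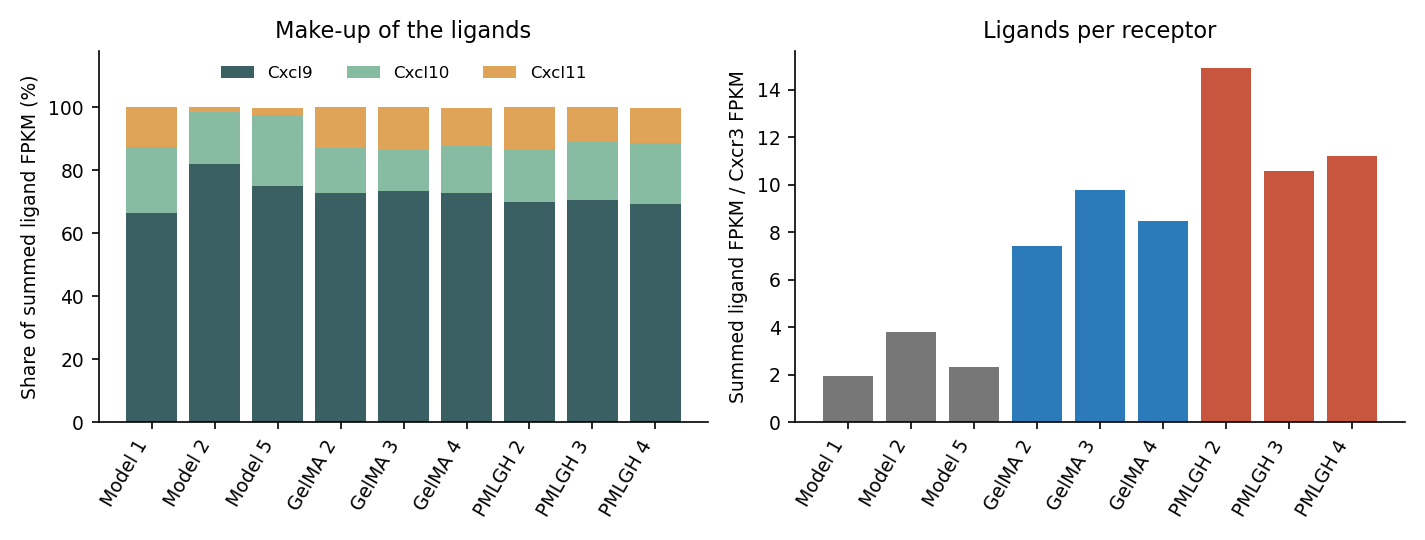
Left, share of each ligand in the summed FPKM of Cxcl9, Cxcl10 and Cxcl11 (y axis, percent) in each library; right, summed ligand FPKM divided by Cxcr3 FPKM (y axis, from 0). Cxcl9 makes up 66.6% to 81.9% of the ligand RNA in every library, and the ratio is at most 3.78 in Model and at least 7.44 in GelMA and 10.6 in PMLGH.

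Interferon-gamma itself was barely detected. Ifng had 0, 3 and 0 counts in Model 1, 2 and 5, then 0, 0 and 1 in GelMA 2, 3 and 4, and 17, 4 and 12 in PMLGH 2, 3 and 4, and did not pass the filter. PMLGH 3, with 4 counts, lay next to Model 2 with 3. Summed over libraries, the ratio of PMLGH to Model was 10.4, with a 95% counting interval of 3.25 to 52.8 that covers counting error only. The ratio of PMLGH to GelMA, from 33 counts and 1 count, was 32.1 (5.38 to 1310).

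Of the interferon-gamma pathway, from receptor to transcription factor, 11 of 19 tested genes rose in PMLGH against Model and none fell. The median log2 fold change was 0.51 where the median of all tested genes was 0.02. Among all tested genes, 15.7% were called higher and 11.9% lower there. These shares were 12.7% and 9.88% in GelMA against Model, and 1.80% and 1.64% in PMLGH against GelMA. Irf1, a transcription factor through which interferon-gamma acts, averaged 54.9 CPM in Model, 73.7 in GelMA and 90.8 in PMLGH. It rose in PMLGH against Model (0.73 ± 0.06, edgeR adjusted p = 2.7e-07). Ifngr1, the ligand-binding chain of the receptor, rose by 0.51 ± 0.07 (adjusted p = 5.2e-05). Ciita, the switch of MHC class II genes, rose by 1.12 ± 0.13 (adjusted p = 1.8e-05). These changes were smaller than those of the ligands. In GelMA against Model 6 of the 19 rose (10 without Model 2), with a median of 0.28, Irf1 by 0.43 ± 0.06. In PMLGH against GelMA 4 rose (2 without GelMA 4 or PMLGH 2), with a median of 0.18, among them Irf1 (0.30 ± 0.06, adjusted p = 0.0057). None of the 19 fell in any of the 3 comparisons, also with DESeq2 and limma; at an unadjusted p under 0.05 none was lower in those against Model and 1 in PMLGH against GelMA.

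Of the targets of interferon-gamma, 18 of 22 tested rose in PMLGH against Model and none fell, with a median of 0.75. The share of all tested genes called higher was 15.7% there, 12.7% in GelMA against Model and 1.80% in PMLGH against GelMA. Gbp2, a GTPase of cell-autonomous defence, had 31.3, 34.9 and 32.0 CPM in Model and 74.5, 73.5 and 70.2 CPM in PMLGH (1.15 ± 0.07, adjusted p = 1.4e-08). Nos2, which makes nitric oxide in activated macrophages, rose by 2.56 ± 0.12, Cd74, the invariant chain of MHC class II, by 1.29 ± 0.09, and Serping1, the C1 inhibitor, by 0.79 ± 0.06. In GelMA against Model 11 of 22 rose, with a median of 0.37, including Nos2 (2.05 ± 0.12), Cd74 (1.00 ± 0.09) and Gbp2 (0.59 ± 0.07). PMLGH against GelMA gave 7 that rose, with a median of 0.29, including Gbp2 (0.56 ± 0.07, adjusted p = 1.7e-04). That count was 13 without Model 2, and 4, 2, 3, 4 and 4 without GelMA 2, GelMA 3, PMLGH 2, PMLGH 3 and PMLGH 4. It was 12 from the 6 libraries alone, 11 with DESeq2 and 3 with limma. No target was lower in any comparison, by any of these tools or at an unadjusted p under 0.05.

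Genes of the type I interferon pathway and its targets were called in both directions. In PMLGH against Model 5 of 21 rose and 3 fell (6 without Model 2), with a median of 0.05. Of all tested genes, 15.7% were called higher and 11.9% lower in that comparison, and 12.7% and 9.88% in GelMA against Model. The counts in PMLGH against Model were near those shares, so no response of the pathway is read from them. Ifit3 rose by 0.90 ± 0.13 and Ifit2, a related antiviral protein, by 0.43 ± 0.09. Rsad2, which encodes the antiviral enzyme viperin, fell by 0.57 ± 0.11, and Cmpk2, a nucleotide kinase, fell by 0.52 ± 0.11. GelMA against Model gave 4 that rose (2 without Model 1 or GelMA 4, 7 with no filter on low counts) and 5 that fell (3 without Model 5 or with limma), with a median of -0.06. In PMLGH against GelMA edgeR called none, with 4 higher and 1 lower at an unadjusted p under 0.05. There DESeq2 called 1 higher and 1 lower, and limma called none. Without Model 2, with no filter on low counts or from the 6 libraries alone, 2 were called higher and 1 lower, and 1 was called higher without GelMA 2 or GelMA 4.

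Of the NF-kappaB inputs and feedback genes, 14 of 18 rose in PMLGH against Model and none fell, with a median of 0.46. Over all tested genes, 15.7% were called higher there, 12.7% in GelMA against Model and 1.80% in PMLGH against GelMA. The cytokine Il1b had 11.3, 15.8 and 13.0 CPM in Model and 52.4, 65.0 and 60.5 CPM in PMLGH (2.15 ± 0.11, adjusted p = 3.7e-09). Its relative Il1a rose by 2.15 ± 0.25, the receptor Il1r1 by 1.11 ± 0.09, and Tlr2, a receptor for bacterial lipoproteins, by 1.06 ± 0.09. Against Model, 7 rose in GelMA (12 without Model 2), with a median of 0.32, including Il1b (1.64 ± 0.11). PMLGH against GelMA gave 5 that rose, with a median of 0.22, including Il1a (1.45 ± 0.24, adjusted p = 0.0024) and Tlr2 (0.51 ± 0.09, adjusted p = 0.0031). The count was 3 without GelMA 3, GelMA 4 or PMLGH 3, and 3 or 2 with limma by pseudocount. None of these genes was lower in any comparison, also with DESeq2, limma and at an unadjusted p under 0.05.

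**Figure D4:**
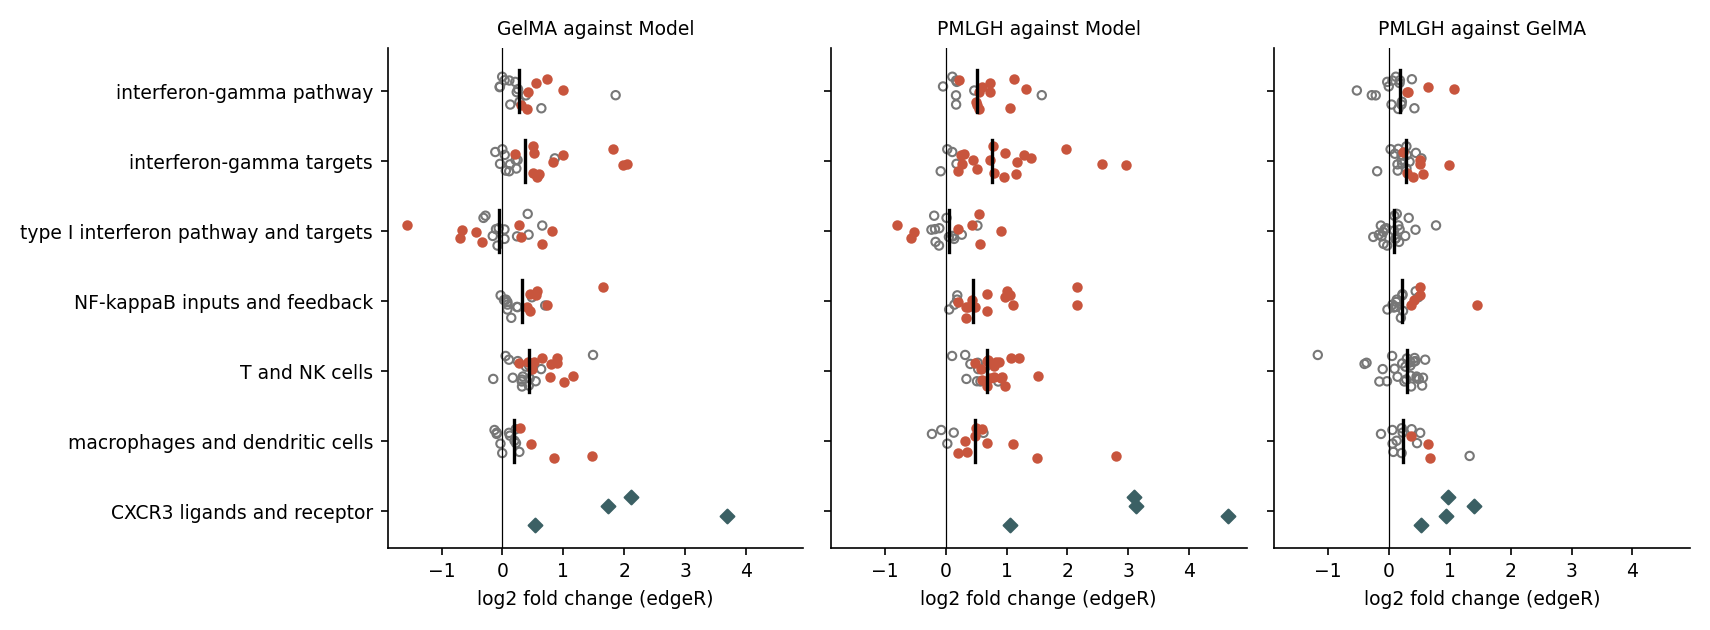
Log2 fold change (x axis) of every tested gene of 6 gene lists in the 3 comparisons; filled points passed an adjusted p under 0.05, open points did not, black lines are list medians, and diamonds are Cxcl9, Cxcl10, Cxcl11 and Cxcr3, shown without a test. The medians of the lists lie between -0.06 and 0.75, and the ligands lie above them in each panel.

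Genes of proteins that trim, bind or scavenge the ligands, or are otherwise tied to CXCR3, were called in both directions. Of 9 such genes, 4 rose and 2 fell in PMLGH against Model (1 fell without Model 1, GelMA 2, PMLGH 3 or PMLGH 4), with a median of 0.11. Of all tested genes, 15.7% were called higher and 11.9% lower there. Ackr3, a decoy receptor for CXCL11 and CXCL12, rose by 0.57 ± 0.12 (edgeR adjusted p = 0.0023). Ackr1, whose protein binds many chemokines, fell by 0.44 ± 0.10 (edgeR adjusted p = 0.0056). The proteases Mmp9 and Mmp12 rose by 0.53 ± 0.07 and 1.20 ± 0.17. Dpp4, the peptidase that clips the ends of CXCR3 ligands and so weakens them, had 39.5, 49.6 and 33.2 CPM in Model, 47.8, 56.7 and 56.9 CPM in GelMA and 35.0, 37.2 and 32.6 CPM in PMLGH. It fell by 0.62 ± 0.12 in PMLGH against GelMA (adjusted p = 0.0062), the 1 edgeR call among the 9 there, while none rose (1 at an unadjusted p under 0.05, 1 with DESeq2, 1 without Model 2 and none with limma). The change of Dpp4 in PMLGH against Model was -0.22 ± 0.12, which did not pass except without Model 5 (-0.37).

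Many markers of the cells that carry the receptor rose with it against Model, but not all were higher in PMLGH than in GelMA. Of 27 T and NK cell genes, 17 rose in PMLGH against Model, where 15.7% of all tested genes were called higher. None of the 27 was lower, also with DESeq2, limma and at an unadjusted p under 0.05. Their median was 0.69, beside 1.06 for Cxcr3. The share of all tested genes called higher was 12.7% in GelMA against Model and 1.80% in PMLGH against GelMA. Zap70, which relays T cell receptor signals, rose by 1.20 ± 0.15 (adjusted p = 3.6e-05), and Cd8b, a chain of the cytotoxic T cell co-receptor, by 1.07 ± 0.16. Cd3e, part of the T cell receptor complex, rose by 0.90 ± 0.19 (adjusted p = 0.0026). Tbx21, the transcription factor of T helper 1 cells that turns on Cxcr3, had 3.33, 3.44 and 3.38 CPM in Model. It had 6.19, 4.98 and 4.59 CPM in GelMA and 6.83, 3.83 and 4.03 CPM in PMLGH. Its change in PMLGH against Model did not pass (0.53 ± 0.22, edgeR adjusted p = 0.087), and PMLGH against GelMA gave -0.10. Against Model, 11 rose in GelMA, with 6, 19, 7 and 6 without Model 1, Model 2, GelMA 2 and GelMA 4. In PMLGH against GelMA edgeR called none, with 10 higher and none lower at an unadjusted p under 0.05; DESeq2 called 3 higher and limma none. Without Model 1 and without Model 2 the edgeR count was 2 and 6, and it was 4 with no filter on low counts, 1 with a robust spread and 6 from the 6 libraries alone. Cd3g and Gzma were lower in each PMLGH library than in each GelMA library. Cd3g had 9.70, 8.78 and 10.0 CPM in GelMA and 7.04, 8.30 and 6.76 CPM in PMLGH. Gzma had 0.99, 1.61 and 1.05 CPM in GelMA and 0.54, 0.32 and 0.76 CPM in PMLGH.

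The summed level of these 27 markers, all detected in the series, was 373 to 486 CPM in Model, with Model 2 the highest, 499 to 539 in GelMA and 595 to 608 in PMLGH, without overlap (p = 0.1 in every exact permutation test, two-sided). Per 100 CPM of the CD3 genes Cd3d, Cd3e, Cd3g and Cd247, which were picked for this ratio after their values were seen, Cxcr3 stood at 26.0, 20.8 and 27.2 in Model 1, 2 and 5. It stood at 24.9, 22.7 and 22.5 in GelMA 2, 3 and 4 and at 24.2, 33.1 and 30.8 in PMLGH 2, 3 and 4. On this scale the 3 groups overlapped. The part of T and NK cell numbers in the level of Cxcr3 was not tested.

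The share of all tested genes called higher was 15.7% in PMLGH against Model, 12.7% in GelMA against Model and 1.80% in PMLGH against GelMA. Of 15 macrophage and dendritic cell genes, a source of the ligands, 10 rose in PMLGH against Model. None of the 15 fell in edgeR there, with a median of 0.49. At an unadjusted p under 0.05, 10 were higher and 1 lower, DESeq2 called 1 lower, limma none, and edgeR called 1 lower without Model 1, GelMA 3 or GelMA 4, with no filter and under both other scalings. Cd14, a receptor for lipopolysaccharide, rose by 1.51 ± 0.09 and Adgre1, which encodes F4/80, by 1.11 ± 0.10. Cd163 went the other way, with overlap, at 184.7, 243.6 and 201.1 CPM in Model and 172.1, 174.6 and 191.9 CPM in PMLGH. The summed level of the 15 genes was 1040 to 1300 CPM in Model, with Model 2 the highest, 1200 to 1270 in GelMA and 1400 to 1500 in PMLGH. GelMA against Model gave 5 that rose, but 2 or 3 without any single library other than Model 2 and 3 from the 6 libraries alone. PMLGH against GelMA gave 3 that rose (7 without Model 2, 5 with no filter on low counts, 8 from the 6 libraries alone), namely Cd14 (0.67 ± 0.09, adjusted p = 4.5e-04), Adgre1 (0.64 ± 0.10) and the lysosomal protein Cd68 (0.37 ± 0.06). Of 8 endothelial genes, another source, 5 rose in each comparison with Model, Eng by 0.52 ± 0.06 in PMLGH. In PMLGH against GelMA 1 rose, with none without GelMA 2, GelMA 4, PMLGH 2 or PMLGH 4 and 2 without Model 2, with DESeq2, with no filter or from the 6 libraries alone.

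Stromal fibroblasts, a further source, had markers that summed to 1400 to 1560 CPM in Model, 3000 to 3350 in GelMA and 4220 to 4870 in PMLGH, without overlap, and all 8 were detected. Of these 8 genes, 7 rose in both comparisons with Model, with medians of 0.77 for PMLGH and 0.62 for GelMA. Over all tested genes, 15.7% were called higher in PMLGH against Model, 12.7% in GelMA against Model and 1.80% in PMLGH against GelMA. In PMLGH against GelMA 3 of the 8 rose, with a median of 0.14. Those 3 were the matrix genes Col3a1, Lum and Postn, which averaged 1362, 560 and 364 CPM over the series and made up most of the sum. The other 5 did not pass in PMLGH against GelMA, and for each of them the libraries of both groups overlapped. Postn, a matrix protein of healing tissue, rose by 2.62 ± 0.13 in PMLGH against Model and by 0.90 ± 0.12 in PMLGH against GelMA (adjusted p = 4.6e-04). Lum, which encodes the collagen-binding lumican, rose by 1.43 ± 0.06 and 0.50 ± 0.06. The part of macrophages, dendritic, endothelial and stromal cells in the ligand levels was not tested.

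Other chemokine families are given for comparison without a test of the difference. The share of all tested genes called higher was 15.7% in PMLGH against Model, 12.7% in GelMA against Model and 1.80% in PMLGH against GelMA. Of the neutrophil-attracting CXC chemokines and their receptor Cxcr2, 6 genes were tested. In both comparisons with Model 5 rose, Cxcr2 among them, and 1 fell. The call of Cxcr2 in GelMA against Model held in 6 of 18 alternatives. The 6 genes had medians of 2.60 for PMLGH and 2.02 for GelMA. Between PMLGH and GelMA edgeR called none of them, with 3 higher at an unadjusted p under 0.05, DESeq2 called 3, limma called 0 or 1 by pseudocount, and edgeR called 1, 3 and 1 without Model 1, Model 2 and Model 5, 2 with no filter and 3 from the 6 libraries alone. Of 7 monocyte CC chemokine and receptor genes, 6 rose in PMLGH against Model, 5 in GelMA against Model and 4 in PMLGH against GelMA, with medians of 1.90, 1.01 and 1.01. Ccl2, which attracts monocytes, rose by 1.23 ± 0.19 in PMLGH against GelMA (adjusted p = 0.0014), beside 1.40 for Cxcl10.

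Of the 6 genes around the ligands, 2 rose in PMLGH against Model, 1 in GelMA against Model (2 without Model 2 or GelMA 4, with limma, a robust spread or other filters), and in PMLGH against GelMA 1 rose and 1 fell. Of all tested genes, 15.7% were called higher in PMLGH against Model and 12.7% in GelMA against Model. In PMLGH against GelMA 1.80% were called higher and 1.64% lower. With so few neighbours, nothing is read from these counts. Art3, which lies on the opposite strand and overlaps Cxcl10 and Cxcl11 in GRCr8, had 3.21, 3.41 and 2.76 CPM in Model, 6.25, 7.38 and 7.38 CPM in GelMA and 3.72, 3.61 and 4.93 CPM in PMLGH. It was thus highest in GelMA, where the muscle markers were also highest, and rose there against Model by 1.16 ± 0.18 (adjusted p = 2.8e-04). No source used here says whether the counting used strand, so reads of Art3 and of Cxcl10 and Cxcl11 cannot be told apart with certainty. Art3 fell by 0.78 ± 0.17 in PMLGH against GelMA, a call lost without GelMA 3, GelMA 4, PMLGH 2 or PMLGH 3, while both ligands were higher in PMLGH. Scarb2, a lysosomal membrane protein, had the same order of groups as the ligands, without overlap, at 43.4, 46.8 and 46.3 CPM in Model, 48.7, 50.9 and 52.3 CPM in GelMA and 64.2, 69.9 and 69.9 CPM in PMLGH. It rose by 0.58 ± 0.06 in PMLGH against Model (adjusted p = 8.8e-06) and by 0.42 ± 0.06 in PMLGH against GelMA (adjusted p = 9.7e-04), and its 0.15 ± 0.06 in GelMA against Model passed only with limma. Naaa, a lysosomal amidase, rose by 0.37 ± 0.09 in PMLGH against Model. In that comparison Nup54, Sdad1 and Ppef2 did not pass (-0.01 ± 0.07, 0.24 ± 0.09 and -1.77 ± 0.79), though Sdad1 passed without Model 2, with a filter at a mean of 1 CPM and with limma.

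Genes of like pattern were sought among 14211 others with at least 1 CPM on average, by the root mean square difference between mean-centred log2 CPM profiles over the 9 libraries. The profiles of Cxcl9 and Cxcl10 differed by 0.28, less than the profile of Cxcl9 and that of any of the other genes. Nearest to Cxcl9 were Ubd, a ubiquitin-like protein (0.30), Xcr1, a chemokine receptor of cross-presenting dendritic cells (0.33), and the bicarbonate transporter Slc4a5 (0.33). Ubd had 1.87 ± 0.77, 7.39 ± 1.02 and 14.6 ± 4.2 CPM in Model, GelMA and PMLGH (SD, n = 3). Nearest to Cxcl10 were Saal1 (0.27), Ubd (0.32) and the apolipoprotein Apoe (0.33). Saal1 had 0.86 ± 0.10, 3.73 ± 0.17 and 11.5 ± 1.0 CPM. Cxcl11 had no match as close: Ccl7, Cxcl13 and Fcrl2 differed from it by 0.53, 0.67 and 0.71, and Cxcl9 by 1.04. The measure is not scaled to the size of a gene's own differences. Model 1, 2 and 5 also held only 24, 6 and 4 counts of Cxcl11, so no distinct pattern is read from its distances. Nearest to Cxcr3 were the unnamed gene LOC103690326 (0.12) and the immunity-related GTPase Irgm (0.12).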

How the data were processed

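RNA of 9 rat tibia samples was sequenced. The authors deposited raw counts per gene symbol, and FPKM, which they scaled to gene length and library total. The submitters' processing notes name DESeq2 and R 3.2.0 without a role; the aligner, counter, build, annotation and strand setting were not given in the sources used here. Each deposited FPKM equalled the count over the library total and 1 fixed gene length (relative tolerance 0.0001, 22798 of 22798 genes with counts), so FPKM served to compare genes only.

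Counts were tested with edgeR 4.0.16 in R 4.3.3 (filterByExpr, TMM, quasi-likelihood fit with 1 mean per group over all 9 libraries, 6 residual degrees of freedom, Benjamini-Hochberg over 16816 genes, threshold 0.05, two-sided), after a check on simulated data. The ± of a log2 fold change is its size over the square root of F. Alternatives used DESeq2 1.42.0, limma 3.58.1, other scalings and filters, and left out each library. Of 215 distinct list symbols, 212 matched; the other 3 are not analysed here. The members and lists were chosen with earlier results of these data known. Named genes are the members, up to 4 genes of smallest p per list with at least 1 CPM, genes set by name (among them Ifng, Irf1, Tbx21, Cd3e, Dpp4, Ackr3 and Art3) and the 3 nearest profiles per member; the text takes its examples from these, and some of them are not reported here. Nup54, Ppef2, Cd3g, Gzma, Dmp1 and Cd163 fall outside this rule and were named after their values were seen. Log2 CPM used a prior count of 2. Promoter letters are RefSeq's for GRCr8, a build that may differ from the authors'. Totals of 34571478 to 37166383 counts leave Ifng, and Cxcl11 in Model, at few counts.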

Additional observations from a re-analysis of the deposited data

How the results depend on the processing

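Every log2 fold change of Cxcl9, Cxcl10, Cxcl11 and Cxcr3 kept its sign under all alternatives run. On log2(FPKM + 1), a scale that shrinks low genes, PMLGH against Model gave 2.46 for Cxcl10, 2.75 for Cxcl11 and 0.84 for Cxcr3, GelMA against Model gave 1.26 for Cxcl10 and 1.99 for Cxcl11, and PMLGH against GelMA gave 1.20 for Cxcl10. Leaving out 1 library gave 2.86 to 3.63 for Cxcl9 and 4.22 to 5.81 for Cxcl11 in PMLGH against Model, and 1.89 to 2.66 and 3.28 to 4.87 in GelMA against Model. Genes called in PMLGH against GelMA numbered 578, with 1059 from the 6 libraries alone, 384 on log2(FPKM + 0.1), 909 with DESeq2 and 303 to 1050 when 1 library was left out (1050 without Model 2); the cause was not tested. The counts of the other comparisons stayed within 1.5 times (3244 to 5668 of 4631, and 2601 to 5053 of 3804). With the replicate block in PMLGH against GelMA, 1037 genes were called, Cxcl11 among them; same-numbered libraries did not deviate together (correlations 0.014, 0.027 and -0.0083), so the numbers were not taken as pairs. With few counts of Cxcl11 and Ifng in Model, depth limits their ratios.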
